A study of Mus musculus with 52 samples.

Results

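The mouse mitochondrial genome carries 37 genes, and all 37 had a row among the 55487 genes of the count table: 13 code for proteins, 2 for ribosomal RNAs (rRNAs) and 22 for transfer RNAs (tRNAs). They were taken as the rows whose Ensembl identifier maps to a symbol that starts with mt-, a rule that uses no measured values. This set was chosen with earlier results of these data known. Total RNA was sequenced from the gastrocnemius, a large muscle of the calf. All mice were C57BL/6 males of 22 to 24 months, an old age for this strain. The 52 libraries form 13 groups of 4. Mice of AMB_W walked freely and drank water, and form the baseline control. In the HU groups the hind limbs were kept off the ground (hindlimb unloading), which makes muscle waste. In the RL7 and RL14 groups the limbs carried weight again (reloading) for 7 d or for 14 d after such unloading. The ending of a group name is its drink: water (W), metformin (M), leucine (L) or metformin together with leucine (ML). Metformin is a diabetes drug known to act on respiratory complex I, and leucine an amino acid that stimulates protein synthesis. No group carries a named allele or transgene. The labels used here name no drug dose and no length of unloading. A library is named by its group and the replicate number of its title, and each was taken as 1 mouse. P-values measure the spread between these libraries.

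Mitochondrial DNA is a small circle present in many copies per cell. Both of its strands are read from start to end as long transcripts, by the polymerase POLRMT with TFAM and TFB2M. Nearly all rRNA and mRNA genes are read from one strand, while mt-Nd6 and a minority of the tRNAs are read from the other. Most tRNAs lie between the larger genes, and cutting them out at both ends releases the rRNAs and mRNAs. The 13 proteins are subunits of respiratory complexes I, III, IV and V, which turn fuel into ATP; 7 of them belong to complex I. The 2 rRNAs and the 22 tRNAs serve the mitochondrial ribosome that makes these proteins. Skeletal muscle, above all its oxidative fibres, is rich in mitochondria, and disuse is known to lower its mitochondrial content. In bulk tissue, fewer cells or organelles of a kind and less RNA in each cannot be told apart.

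The layout decides how reads can be assigned, so the tRNAs with the most counts and the places where protein genes share bases are shown first. All sequences are the gene's own strand, 5′ to 3′, from the GENCODE vM21 transcripts on GRCm38. The first 3 tRNAs lie beside highly counted rRNA or mRNA genes on the plus strand, and mt-Tp stands for the minus strand. Capitals mark the anticodon. The genes carry leucine (mt-Tl1, chrM:2676-2750, plus), tryptophan (mt-Tw, chrM:4950-5016, plus), methionine (mt-Tm, chrM:3845-3913, plus) and proline (mt-Tp, chrM:15356-15422, minus).
mt-Tl1: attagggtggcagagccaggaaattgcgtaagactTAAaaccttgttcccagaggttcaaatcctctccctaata
mt-Tw: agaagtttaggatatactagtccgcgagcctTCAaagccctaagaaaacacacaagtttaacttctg
mt-Tm: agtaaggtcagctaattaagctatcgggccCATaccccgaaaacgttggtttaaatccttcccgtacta
mt-Tp: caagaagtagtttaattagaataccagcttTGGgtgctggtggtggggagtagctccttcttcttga

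The shortest protein genes share bases with a neighbour. The last 43 bases of mt-Atp8 (chrM:7766-7969, plus) are also the first bases of mt-Atp6, both subunits of ATP synthase. The last 7 bases of mt-Nd4l (chrM:9877-10173, plus) open mt-Nd4, both subunits of complex I. The end of mt-Nd6 (last 60 bases, chrM:13552-13611, minus) lies opposite the end of mt-Nd5 over 14 bases. Capitals mark the shared or opposed bases. Reads in capitals can belong to either gene of a pair.
mt-Atp8: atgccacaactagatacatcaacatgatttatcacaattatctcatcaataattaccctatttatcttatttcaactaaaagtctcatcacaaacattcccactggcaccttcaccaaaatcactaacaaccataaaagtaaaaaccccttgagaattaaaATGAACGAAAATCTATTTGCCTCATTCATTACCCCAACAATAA
mt-Nd4l: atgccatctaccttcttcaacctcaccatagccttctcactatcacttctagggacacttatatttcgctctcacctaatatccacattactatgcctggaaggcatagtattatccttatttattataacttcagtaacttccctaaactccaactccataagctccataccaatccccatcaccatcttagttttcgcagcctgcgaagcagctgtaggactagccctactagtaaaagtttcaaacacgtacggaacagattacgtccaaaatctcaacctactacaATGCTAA
mt-Nd6: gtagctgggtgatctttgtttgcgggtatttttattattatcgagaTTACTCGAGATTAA

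Library totals ran from 15605044 to 32492548 counts. CPM, used below for levels, stands for counts per 1000000 counts and is scaled by each library's total and its TMM factor. Muscle markers (9 genes, Acta1 and Ckm among them) summed to 69276 to 115387 CPM in a library, the brown fat gene Ucp1 had no count in any library, and the 2 heart markers summed to at most 4.16 CPM. Liver markers summed to 0 to 1074 CPM, and Alb passed 16 CPM in 12 libraries of 7 groups. The libraries RL14_ML 1 and RL14_ML 6 stood apart from their group, with 1.9% and 10.9% of counts on mitochondrial rRNA. The library kit removes ribosomal RNA, a step that for this kind of kit also targets both mitochondrial rRNAs. The library numbers in the titles run without a break from group to group, from 1 to 4 in AMB_W to 49 to 52 in RL14_ML, so that group and library number cannot be told apart.

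Levels of different genes were compared per kilobase of gene. Averaged over the 52 libraries, mt-Co1, the catalytic subunit of cytochrome c oxidase (complex IV), had the highest level at 23953 CPM per kb. The complex I genes mt-Nd1 and mt-Nd2 followed at 20985 and 16573 CPM per kb, and mt-Cytb of complex III at 16172 CPM per kb. The small-subunit rRNA mt-Rnr1 came next at 14043 CPM per kb and the large-subunit rRNA mt-Rnr2 lay at 5445 CPM per kb, both after the removal of rRNA. This order was not that of every group: mt-Co1 ranked highest in 12 of 13, and in RL14_ML mt-Rnr1 did, at 37866 ± 32152 CPM per kb beside 27841 ± 10567 for mt-Co1. In AMB_W mt-Rnr1 lay sixth, at 12128 ± 1722 CPM per kb, below mt-Nd5 at 15368 ± 1552. The minus-strand mRNA mt-Nd6 reached 1280 CPM per kb, and the highest tRNA, mt-Tl1, 1044 CPM per kb. Most other tRNAs were rare: 7 of 22 (mt-Ty, mt-Tf, mt-Ts1, mt-Th, mt-Td, mt-Ts2 and mt-Tk) did not pass the filter on low counts, and mt-Tk had 4 counts in all and 0 in 49 of 52 libraries. A count of 0 allows up to 3 counts, or 0.0923 to 0.192 CPM depending on the library. Altogether 30 of 37 genes were tested.

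The low levels of several mRNAs are uncertain for a second reason. A stretch of mitochondrial DNA is copied in the nuclear genome on chromosome 1, and GENCODE lists pseudogenes there that match 8 of the 13 protein genes with at least 99% identity. For mt-Atp6, 64.8% of the summed counts of the pair lay on the copy Gm10925 (chr1:24613974-24614651, minus). This share was 55.2% for mt-Co3, 49.7% for mt-Co2, 45.3% for mt-Nd4l and 25.9% for mt-Nd3. It was 85.6% for mt-Atp8, whose pair is Gm10925 as well, though Gm10925 matches only 43 of the 204 bases of mt-Atp8. It was 1.95% for mt-Nd4 and 0.453% for mt-Co1, whose copies cover only part of the gene. How reads that fit both places were treated was not given in the sources used here. Levels of mt-Atp6, mt-Atp8, mt-Co2, mt-Co3, mt-Nd3 and mt-Nd4l are uncertain for that reason. The same holds for the copied part of mt-Nd4 and mt-Co1 (63.6% and 31.3% of their length), and so for their levels per kilobase. Summing the counts of each copy with those of a single gene was an alternative added after seeing the data. In it no count of called genes moved by over 1.5 times in the 24 comparisons. Reads dropped for fitting both places would be missing from both counts, so this sum cannot show whether the calls hold with them. Gm10925 was summed with mt-Atp6 and not with mt-Atp8. Among GENCODE transcripts of nuclear genes, no copy that met these limits was found for mt-Nd1, mt-Nd2, mt-Nd5, mt-Nd6, mt-Cytb, the rRNAs or the tRNAs. Nuclear sequence outside these transcripts was not searched, so an unlisted copy, of a tRNA for example, could not be found.

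Protein-coding mitochondrial genes took a large and variable part of each library. In AMB_W their share of counts was 14.6% ± 1.18 (SD, n = 4 here and in all groups). It was 13.5% ± 2.11 in HU_W, 12.5% ± 0.87 in RL7_W and 9.21% ± 1.44 in RL14_W. The RL14_W libraries (7.73% to 10.8%) lay below all AMB_W libraries (13.1% to 16%) and all HU_W libraries (10.9% to 16%). Under the treatments the order turned with time. At 7 d of reloading the share was 6.98% ± 1.59 with metformin, 7.8% ± 1.62 with leucine and 8.05% ± 1.31 with both, and every treated library lay below every RL7_W library. At 14 d it was 17.9% ± 3.25, 15.7% ± 3.31 and 14.8% ± 3.84. The RL14_M and RL14_L libraries lay above all RL14_W libraries, while RL14_ML reached down to 9.46% and overlapped them. During unloading the shares were 13.8% ± 1.77, 15.7% ± 3.66 and 10.8% ± 0.678, and all 3 overlapped HU_W.

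The rRNA share was also low in RL14_W and in the treated groups at 7 d and high in the treated groups at 14 d, while the order among the drinks was not that of the protein-coding share. It was 1.67% ± 0.235 in AMB_W, 1.51% ± 0.181 in RL7_W and 0.738% ± 0.138 in RL14_W. During unloading it was 1.49% ± 0.336 in HU_W, 1.67% ± 0.204 in HU_M, 2.62% ± 0.55 in HU_L and 1.33% ± 0.301 in HU_ML. The HU_L libraries (2.14% to 3.41%) lay above all HU_W libraries (1.13% to 1.89%). At 7 d it was 0.79% ± 0.169 in RL7_M, 0.629% ± 0.0942 in RL7_L and 0.832% ± 0.199 in RL7_ML. At 14 d it reached 4% ± 0.999 in RL14_M, 3.78% ± 1.19 in RL14_L and 5.56% ± 3.97 in RL14_ML. The spread of RL14_ML came from RL14_ML 6 at 10.9% and RL14_ML 1 at 1.9%. Thus 16 libraries, those of RL7_M, RL7_L, RL7_ML and RL14_W, held rRNA shares of 0.501% to 1.09%, against 1.07% to 10.9% in the other 36. These 16 are also a run of library numbers, 25 to 40, so that a property of the group and one of the library order cannot be told apart. Per protein-coding count, rRNA counts stood at 0.115 in AMB_W, 0.0799 in RL14_W, 0.221 in RL14_M, 0.242 in RL14_L and 0.346 in RL14_ML, a ratio given without a test. The tRNA share was small, 0.0243% ± 0.00408 in AMB_W, 0.0135% ± 0.00348 in RL14_W and 0.0254% ± 0.00545 in RL14_M. Counting error (95% Wilson intervals, which cover counting error only) was at most 0.215% of a library's protein-coding share, 0.612% of its rRNA share and 4.68% of its tRNA share.

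**Figure D1:**
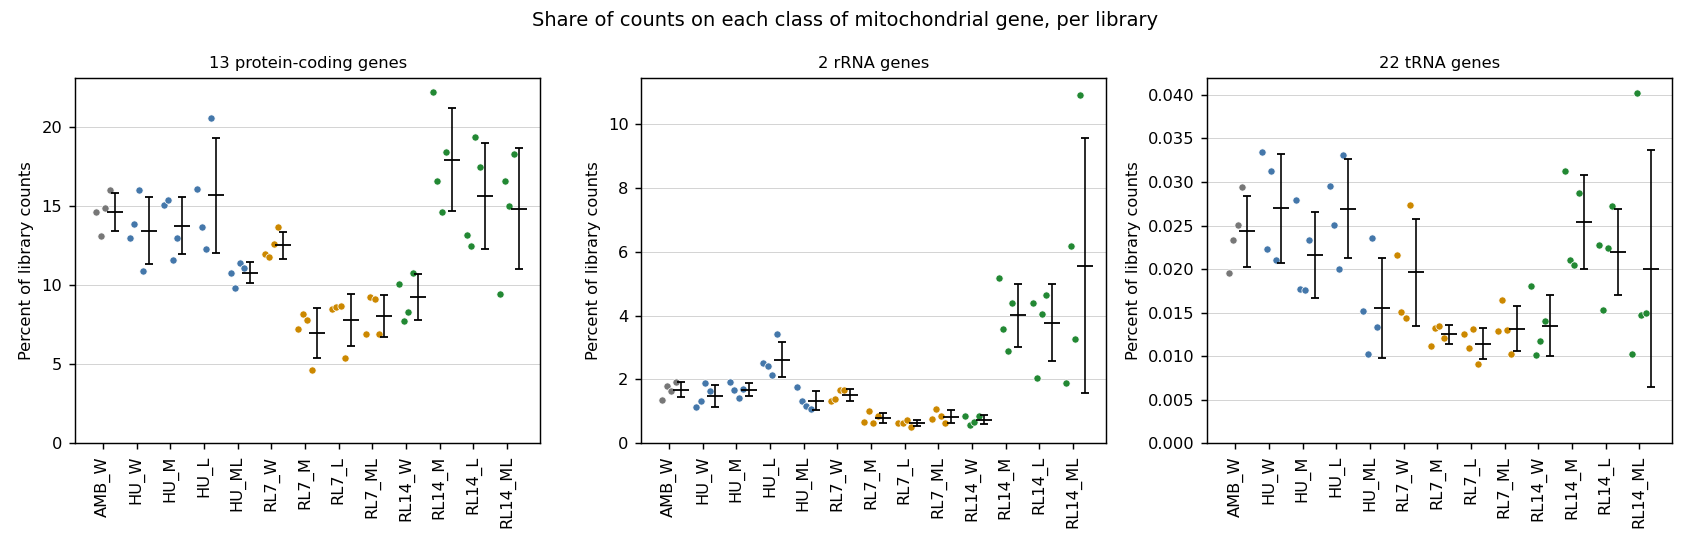
Percent of all counts of a library (vertical axes) on the 13 protein-coding, 2 rRNA and 22 tRNA genes of the mitochondrial genome, for the 13 groups along the horizontal axis; each point is 1 library, and the bar beside it gives the group's mean and SD (n = 4). The treated groups at 7 d and RL14_W sit low in the rRNA and protein-coding panels (rRNA 0.501% to 1.09%), and the treated groups at 14 d sit high, with RL14_ML 6 at 10.9%.

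Single genes were then tested in 1 edgeR quasi-likelihood model of all 52 libraries, with p-values adjusted over the 16668 genes tested (Benjamini-Hochberg), and a gene was called at an adjusted p under 0.05. Each count of called mitochondrial genes, out of 30 tested, stands beside the share of all genes called in the same comparison. The first question was what unloading and reloading did in mice on water. For unloading alone, 0 of 30 were called in HU_W against AMB_W, where 2.78% of all genes were called in either direction. After 7 d of reloading, 0 were called against AMB_W (0% of all genes), and 3 had an unadjusted p under 0.05. There limma voom called 2 (168 over all genes). Against HU_W, 1 was lower, mt-Nd4l (2.9% of all genes lower, 1.97% higher). Its groups overlapped, and it was not called without HU_W 3 (log2 fold change -0.48) or any 1 library of RL7_W (-1.53 to -1.32). Without RL7_W 4 the count stayed at 1, since mt-Tg was called in its place. In HU_W against AMB_W no mitochondrial gene had an unadjusted p under 0.05, and DESeq2 and limma voom called 0.

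After 14 d of reloading on water, 14 of the 30 genes were lower than in HU_W, 1 was lower than in AMB_W and 0 differed from RL7_W by the test. Against HU_W the 14 were called lower and 0 higher (4.22% of all genes lower, 5.5% higher): 1 of 2 rRNAs, 6 of 13 protein genes and 7 of 15 tested tRNAs. All 30 log2 fold changes were negative, with a median of -0.82 beside 0.03 over all genes, and for each of the 14 the libraries of both groups did not overlap. Against AMB_W, 1 was lower, mt-Rnr1 (0.054% of all genes lower), while 29 of 30 fold changes were negative and 21 had an unadjusted p under 0.05. Against RL7_W, 0 were called (0.036% of all genes) and 7 passed an unadjusted p of 0.05. There DESeq2 called 0 and limma voom 8 (36 and 1371 over all genes). The count of 14 rested on single libraries: it was 3 without HU_W 3, 4 without RL14_W 4, 6 without RL14_W 1, 6 without RL14_W 3 and 9 without HU_W 2. The 1 call against AMB_W was absent without any 1 of AMB_W 2, 3, 4 or 5 or RL14_W 1, 3 or 4, and there were 2 calls without RL14_W 5. Without the libraries with Alb above 16 CPM, 2 of which are in HU_W and 1 in RL14_W, the 14 became 4. Over all genes the calls went from 1620 to 420.

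During unloading the drinks gave 0 calls: HU_M against HU_W (0% of all genes; 1 at an unadjusted p under 0.05), HU_L against HU_W (0.006%; 2, both rRNAs) and HU_ML against HU_W (0.048%; 9). DESeq2 and limma voom called 0 in each of these. At 7 d of reloading, 3 of 30 were lower with metformin (0.048% of all genes lower), all mRNAs: mt-Nd2, mt-Nd5 and mt-Cytb, with no overlap of libraries. Without RL7_W 3, RL7_W 4 or RL7_M 4 this count was 0. Without the libraries with Alb above 16 CPM, 2 of which are in RL7_M, it was 5 (192 over all genes, from 23). Leucine gave 0 calls (0.078% of all genes), with 17 at an unadjusted p under 0.05. For leucine DESeq2 called 2 and limma voom 8 (38 and 145 over all genes). The combination gave 0 calls as well (0.006% of all genes), with 13 at an unadjusted p under 0.05. For it DESeq2 called 0 and limma voom 6 (21 and 637 over all genes). The median log2 fold change over the 30 was -0.67 with metformin, -0.83 with leucine and -0.61 with both, beside 0.02, 0.02 and 0.01 over all genes. The 3 comparisons share the RL7_W libraries.

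At 14 d of reloading, between 9 and 19 of the 30 genes were higher with a drink than with water. With metformin 19 of 30 were higher and 0 lower (1.54% of all genes higher, 3.58% lower): both rRNAs, 10 of 13 mRNAs and 7 of 15 tRNAs. With leucine 9 were higher and 0 lower (0.204% of all genes higher): both rRNAs, 6 mRNAs and 1 tRNA. With the combination 11 were higher and 0 lower (0.372% of all genes higher): both rRNAs, 9 mRNAs and 0 tRNAs. Libraries did not overlap for 18 of the 19, all 9 and 4 of the 11. These 3 comparisons share the RL14_W libraries, the same ones that were low against HU_W. Set against AMB_W, 0 were called in RL14_M (0% of all genes), and 7 had an unadjusted p under 0.05. There DESeq2 called 0 and limma voom 6 (1 and 90 over all genes). In RL14_L 0 were called (0% of all genes), and 4 had an unadjusted p under 0.05. Both DESeq2 and limma voom called 0 for RL14_L (22 and 0 over all genes). Without RL14_L 2 there were 2 calls. In RL14_ML both rRNAs were higher than in AMB_W (0.096% of all genes higher), and 1 of the 2 was called without AMB_W 2, 3, 4 or 5 or without RL14_ML 6.

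The number of calls at 14 d depended on single libraries. With metformin it was 9 without RL14_W 3, 10 without RL14_W 4, and 12 without RL14_M 1 or RL14_M 6. With leucine it was 2 without RL14_W 1, RL14_W 3, RL14_W 4 or RL14_L 4, and 4 without RL14_L 5. It was 1 without the libraries with Alb above 16 CPM (17 over all genes, from 49). Of those libraries 2 are in RL14_L and 1 in RL14_W. With the combination it was 3 without RL14_W 3 or RL14_W 4, 4 without RL14_ML 6, 6 without RL14_ML 3 and 18 without RL14_ML 1. Both rRNAs were called in each of these leave-one-out fits at 14 d, and the lowest log2 fold change of the 2 was 2.42 with metformin, 2.35 with leucine and, without RL14_ML 6, 2.38 with the combination. Without RL14_ML 1 and RL14_ML 6 together, which enter the spread that all groups share, the counts were 25 with metformin, 15 with leucine, 15 with the combination and 16 for RL14_W against AMB_W. The calls over all genes rose at the same time, from 853 to 2292, 49 to 1112, 119 to 1176 and 29 to 1409. Without the filter on low counts the counts of metformin, leucine and the combination were 13, 2 and 6 (195, 19 and 59 over all genes). In fits of only the compared groups they were 23, 14 and 1 (2188, 234 and 2 over all genes).

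**Figure D2:**
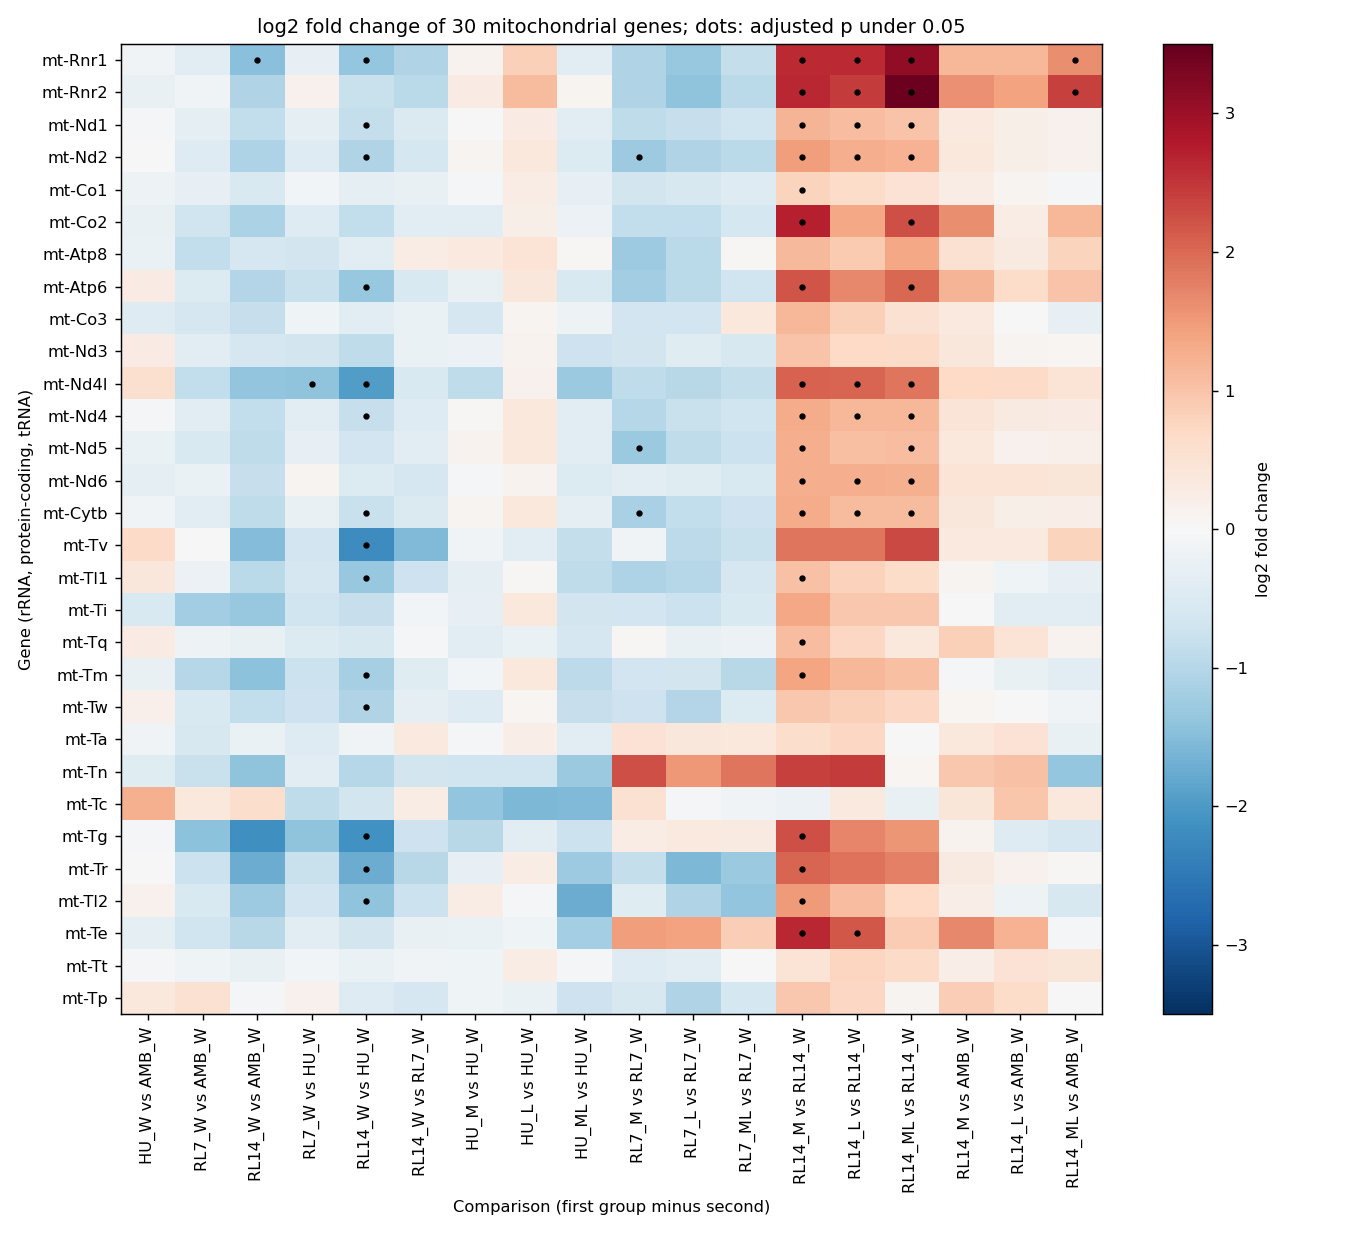
Fitted log2 fold change (colour, first group minus second) of the 30 tested mitochondrial genes (rows, in the order rRNA, protein-coding, tRNA) in each comparison of 2 groups (columns); dots mark genes with an adjusted p under 0.05. The 14 calls of RL14_W against HU_W are lower, and the 19, 9 and 11 calls of the treated groups against RL14_W are higher.

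mt-Rnr1 (chrM:70-1024, plus), the RNA of the small ribosomal subunit, had 9339, 11374, 12682 and 12934 CPM in AMB_W and 8196, 9455, 10889 and 14014 CPM in HU_W. In RL14_W it had 3586, 3952, 4364 and 4907 CPM. All 4 values of RL14_W lie below the lowest of both other groups (against AMB_W, log2 fold change -1.46 ± 0.32, adjusted p = 0.0442; against HU_W, -1.34 ± 0.32, adjusted p = 0.00695). In RL7_W it had 7507, 7821, 9623 and 9895 CPM, above RL14_W and overlapping AMB_W. With the drinks at 7 d it stood at 3230, 3970, 4487 and 4977 CPM in RL7_M and 3049, 3342, 3710 and 3873 CPM in RL7_L. Each of these lay under every RL7_W library, though no call resulted (-1.06 ± 0.32, adjusted p = 0.166 with metformin and -1.32 ± 0.32, adjusted p = 0.152 with leucine). At 14 d it had 19083, 22326, 26823 and 34564 CPM in RL14_M, 13927, 29173, 29746 and 30598 CPM in RL14_L, while RL14_ML had 8209, 22020, 35288 and 79130 CPM. The lowest of these 12 values is above the highest of RL14_W, and RL14_ML spans from 8209 to 79130 CPM.

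The rise of mt-Rnr1 over RL14_W was 2.61 ± 0.33 (adjusted p = 5.62e-06) on the log2 scale with metformin, 2.62 ± 0.33 (adjusted p = 5.18e-06) with leucine and 3.11 ± 0.34 (adjusted p = 8.33e-08) with both. mt-Rnr2 (chrM:1094-2675, plus), the RNA of the large subunit, had 2126, 2490, 3192 and 3613 CPM in RL14_W and 4998, 5491, 6099 and 6915 CPM in AMB_W. At 14 d it had 12509, 14730, 18096 and 25389 CPM in RL14_M, 7453, 17409, 18817 and 19167 CPM in RL14_L, while RL14_ML had 9049, 14020, 25311 and 74173 CPM. It rose by 2.63 ± 0.39 (adjusted p = 0.000181), 2.46 ± 0.39 (adjusted p = 0.000676) and 3.42 ± 0.40 (adjusted p = 6.07e-07). Its values in RL14_W were lower than in AMB_W without overlap, yet the test did not call this difference (-1.04 ± 0.37, adjusted p = 0.148). Of the treated groups at 14 d, RL14_ML was called against AMB_W, with 1.64 ± 0.32 (adjusted p = 0.0145) for mt-Rnr1 and 2.38 ± 0.39 (adjusted p = 0.00124) for mt-Rnr2. Without RL14_ML 6 these were 0.91 and 1.46, and that of mt-Rnr1 was not called, nor was it without AMB_W 2, 3, 4 or 5. The fall of mt-Rnr1 against AMB_W was not called without any 1 of AMB_W 2, 3, 4 or 5 or RL14_W 1, 3 or 4 (-1.57 to -1.41). As a ratio, mt-Rnr2 counts per mt-Rnr1 count averaged 0.508 ± 0.0306 in AMB_W, 0.673 ± 0.0724 in RL14_W and 0.848 ± 0.212 in RL14_ML (SD, n = 4, no test).

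**Figure D3:**
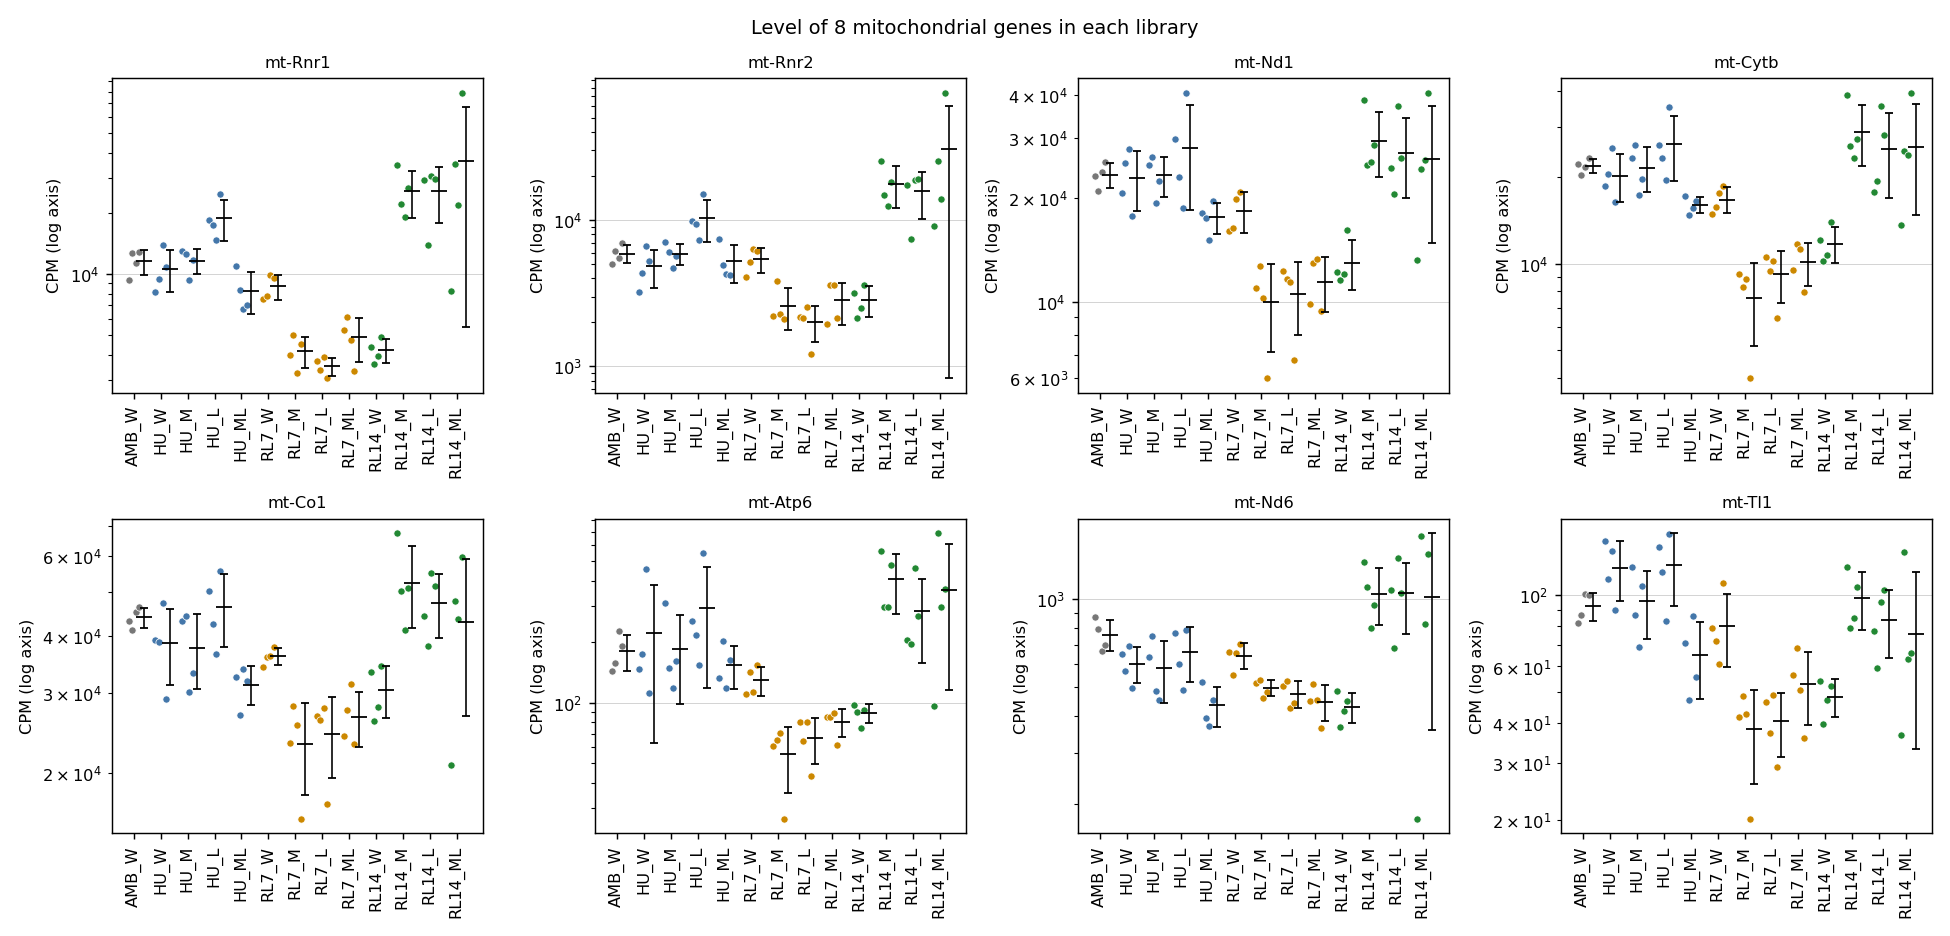
Level in CPM (vertical axes, log scale) of the 2 rRNAs, 1 gene for each respiratory complex, the minus-strand gene mt-Nd6 and the tRNA mt-Tl1, for the 13 groups along the horizontal axis; each point is 1 library, and bars give the mean and SD (n = 4). For mt-Rnr1 the RL14_W libraries reach 4907 CPM at most and the RL14_M libraries start at 19083 CPM.

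Complex I, which takes electrons from NADH, has 7 mitochondrial subunits. mt-Nd1 had 20963, 23214, 23823 and 25582 CPM in AMB_W and 17777, 20789, 25385 and 27933 CPM in HU_W. In RL14_W it had 11537, 12012, 12175 and 16125 CPM, all below both. It fell against HU_W (log2 fold change -0.83 ± 0.24, adjusted p = 0.0233), a call that was lost without any 1 of HU_W 2, HU_W 3, RL14_W 1, RL14_W 3 or RL14_W 4 (-0.82 to -0.73). With metformin at 14 d it had 25008, 25591, 28551 and 38587 CPM, with leucine 20603, 24572, 26194 and 37174 CPM and with both 13258, 24422, 25828 and 40636 CPM. All values of RL14_M and RL14_L exceed those of RL14_W, whereas RL14_ML 1 falls among them. The rises were 1.18 ± 0.24 (adjusted p = 0.00549), 1.07 ± 0.24 (adjusted p = 0.0312) and 1.01 ± 0.24 (adjusted p = 0.0292). The leucine call was lost without RL14_W 1, RL14_W 3, RL14_W 4, RL14_L 4 or RL14_L 5 (0.89 to 1.08) and the combination call without RL14_W 1, RL14_W 3, RL14_W 4 or RL14_ML 6 (0.71 to 0.99). At 7 d mt-Nd1 had 16046, 16406, 19958 and 20930 CPM in RL7_W and 5975, 10274, 10978 and 12734 CPM in RL7_M, without overlap but without a call (-0.88 ± 0.24, adjusted p = 0.13).

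Among the other complex I genes, mt-Nd2 and mt-Nd4 fell in RL14_W against HU_W by 1.06 and 0.82 on the log2 scale, and mt-Nd4l by 1.95. Without HU_W 3 none of the 3 was called, with -0.93 for mt-Nd2, -0.70 for mt-Nd4 and -1.02 for mt-Nd4l, and mt-Nd4 also lost its call without HU_W 2, RL14_W 1, RL14_W 3 or RL14_W 4. At 7 d mt-Nd2 was lower with metformin, from 15038 ± 2429 CPM to 6189 ± 1914 CPM (log2 fold change -1.28 ± 0.27, adjusted p = 0.0261) and mt-Nd5 from 19384 ± 2435 CPM to 7869 ± 3085 CPM (log2 fold change -1.30 ± 0.27, adjusted p = 0.0241). Both calls were lost without RL7_W 3, RL7_W 4 or RL7_M 4 (-1.30 to -1.08). At 14 d mt-Nd2 rose to 26718 ± 6499 CPM with metformin from 9812 ± 1848 CPM with water (log2 fold change 1.45 ± 0.27, adjusted p = 0.00301). With metformin 6 of the 7 were called higher at 14 d, all but mt-Nd3, with log2 fold changes from 1.18 for mt-Nd1 to 2.07 for mt-Nd4l. The metformin calls of mt-Nd5 and mt-Nd4l were lost without RL14_W 3, and that of mt-Nd4l also without RL14_W 4. With leucine mt-Nd1, mt-Nd2, mt-Nd4, mt-Nd4l and mt-Nd6 were called higher, and with the combination these and mt-Nd5. Of these, mt-Nd2, mt-Nd4, mt-Nd4l and mt-Nd6 lost the leucine call without RL14_W 1, RL14_W 3, RL14_W 4 or RL14_L 4, and mt-Nd2, mt-Nd4, mt-Nd4l, mt-Nd5 and mt-Nd6 lost that of the combination without RL14_W 3, RL14_W 4 or RL14_ML 6. mt-Nd4l, which shares bases with mt-Nd4 and most of its length with a nuclear copy, ranged more than its neighbour: it averaged 131 ± 126 CPM in HU_W, 34 ± 8.65 in RL14_W and 143 ± 49.6 in RL14_M. mt-Nd6, read from the minus strand, had 367, 417, 450 and 486 CPM in RL14_W and 795, 952, 1097 and 1336 CPM in RL14_M (log2 fold change 1.28 ± 0.29, adjusted p = 0.0136; not called without RL14_W 3 or RL14_W 4, at 1.24 to 1.28). Those groups do not overlap. In RL14_ML it ran from 178 CPM in RL14_ML 1 to 1645 CPM in RL14_ML 3.

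mt-Cytb is the mitochondrial subunit of complex III, which passes electrons to cytochrome c. It had 20359, 21657, 22161 and 23379 CPM in AMB_W, 16422, 18632, 20471 and 25384 CPM in HU_W and 10227, 10701, 12053 and 13961 CPM in RL14_W. The last group is lower than both without overlap, with a call against HU_W (-0.79 ± 0.23, adjusted p = 0.0278; not called without HU_W 2, HU_W 3, RL14_W 1, RL14_W 3 or RL14_W 4, at -0.82 to -0.67). At 7 d it had 14841, 15775, 17674 and 18583 CPM in RL7_W, 3982, 8316, 8818 and 9220 CPM in RL7_M, 6462, 9430, 10224 and 10553 CPM in RL7_L and 7941, 9510, 11242 and 11731 CPM in RL7_ML. All 12 treated libraries lie below RL7_W, and metformin alone gave a call (-1.14 ± 0.23, adjusted p = 0.0197; lost without RL7_W 3, RL7_W 4 or RL7_M 4, at -1.13 to -0.95). Leucine gave -0.87 ± 0.23 (adjusted p = 0.267) and both gave -0.73 ± 0.23 (adjusted p = 0.374). At 14 d it had 23333, 25744, 27254 and 38815 CPM in RL14_M, 17738, 19482, 28029 and 35454 CPM in RL14_L, while RL14_ML had 13646, 23921, 24752 and 39430 CPM. Against RL14_W these were higher by 1.29 ± 0.24 (adjusted p = 0.00211), 1.10 ± 0.23 (adjusted p = 0.0259) and 1.12 ± 0.23 (adjusted p = 0.0103). The leucine call was lost without RL14_W 1, RL14_W 3, RL14_W 4, RL14_L 4 or RL14_L 5 (0.91 to 1.13), and that of the combination without RL14_W 3, RL14_W 4 or RL14_ML 6 (0.82 to 1.07).

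Complex IV passes electrons to oxygen, and mt-Co1, mt-Co2 and mt-Co3 form its core. mt-Co1 had 41246, 43226, 45274 and 46274 CPM in AMB_W, 29084, 38739, 39233 and 47259 CPM in HU_W and 26056, 27896, 33257 and 34328 CPM in RL14_W. HU_W and RL14_W overlap, and no call resulted (-0.34 ± 0.20, adjusted p = 0.272). In RL14_M it had 41351, 50264, 51083 and 67405 CPM, above all RL14_W libraries (0.79 ± 0.20, adjusted p = 0.0225; not called without RL14_W 3, RL14_W 4, RL14_M 1 or RL14_M 6, at 0.66 to 0.83). In RL14_L it had 38006, 44263, 51505 and 55153 CPM (0.64 ± 0.20, adjusted p = 0.12) and in RL14_ML 20793, 43701, 47718 and 59843 CPM (0.50 ± 0.20, adjusted p = 0.322). Leucine and the combination thus gave no call for it, although the RL14_L libraries do not overlap RL14_W. mt-Co2 went from 66.7 ± 4.18 CPM in RL14_W to 442 ± 156 CPM in RL14_M (2.73 ± 0.44, adjusted p = 0.000783) and 320 ± 253 CPM in RL14_ML (2.26 ± 0.44, adjusted p = 0.00474). The combination call was lost without RL14_ML 3 (1.63). Summed with its nuclear copy, which shares all but its last bases, the metformin difference was 2.02 with an adjusted p of 0.000256. mt-Co3 had 1.16 ± 0.40 (adjusted p = 0.0681) with metformin, and 0.92 with an adjusted p of 0.0373 when summed with its copy.

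Complex V makes ATP, and mt-Atp6 and mt-Atp8 are its mitochondrial subunits. mt-Atp6 had 111, 147, 173 and 457 CPM in HU_W and 75.2, 90.2, 92.3 and 97.6 CPM in RL14_W. HU_W 3, at 457 CPM, is far above the rest, and the fall (-1.32 ± 0.42, adjusted p = 0.0396) was -0.70 without it; the call was lost without any 1 of HU_W 2, HU_W 3, RL14_W 1, RL14_W 3, RL14_W 4 or RL14_W 5. In RL14_M it had 297, 297, 479 and 562 CPM, all above RL14_W (2.20 ± 0.43, adjusted p = 0.00445). In RL14_ML it had 96.1, 298, 363 and 688 CPM (2.02 ± 0.43, adjusted p = 0.013; not called without RL14_W 3, RL14_W 4 or RL14_ML 3, at 1.51 to 2.05), where RL14_ML 1 lies within the range of RL14_W. In RL14_L it had 195, 204, 267 and 465 CPM, also above RL14_W but not called (1.67 ± 0.42, adjusted p = 0.0628). mt-Atp8 was called in no comparison of 2 groups.

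The tRNAs bring amino acids to the mitochondrial ribosome. mt-Tl1, which carries leucine and follows mt-Rnr2 with no gap, had 82.2, 86.7, 100 and 101 CPM in AMB_W, 89.7, 112, 137 and 147 CPM in HU_W and 39.8, 47.1, 52 and 54.2 CPM in RL14_W. RL14_W lies below both groups (against HU_W, log2 fold change -1.33 ± 0.28, adjusted p = 0.00185). In RL14_M it had 78.8, 84.8, 106 and 122 CPM (log2 fold change 1.02 ± 0.28, adjusted p = 0.0264; not called without RL14_W 3, RL14_W 4, RL14_M 1 or RL14_M 6, at 0.91 to 1.03), above RL14_W and overlapping HU_W. The log2 fold change of mt-Rnr2 next to it was 2.63, and the difference between both was not tested. In RL14_L it had 59.2, 77.1, 95.3 and 104 CPM (0.80 ± 0.27, adjusted p = 0.147) and in RL14_ML 36.8, 63.1, 66.3 and 136 CPM (0.65 ± 0.27, adjusted p = 0.348). The other tRNAs called lower in RL14_W against HU_W were mt-Tm, mt-Tw, mt-Tv, mt-Tg, mt-Tr and mt-Tl2, with log2 fold changes from -2.20 for mt-Tv to -1.05 for mt-Tw. Those called higher with metformin at 14 d were mt-Tl1, mt-Tq, mt-Tm, mt-Tg, mt-Tr, mt-Tl2 and mt-Te, from 1.02 to 2.64. mt-Tv, mt-Tg, mt-Tr and mt-Tl2 are rare, at 0.58 ± 0.0545, 0.663 ± 0.272, 2.86 ± 0.608 and 1.54 ± 0.63 CPM in HU_W. Apart from mt-Tl1 against HU_W and mt-Te with metformin, each of these calls was lost in 2 or more leave-one-out fits. Those fits left out 1 of HU_W 1 to 4, RL14_W 1, 3, 4 or 5, or RL14_M 1, 2 or 6. Reads of a cut tRNA and reads of its longer precursor cannot be told apart in gene counts.

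mt-Te, which carries glutamate, had 0.864 ± 0.211 CPM in RL7_W, 2.39 ± 1.82 in RL7_M and 2.34 ± 0.873 in RL7_L, so that its log2 fold change was positive (1.45 ± 0.51, adjusted p = 0.233 and 1.42 ± 0.51, adjusted p = 0.487) where those of all 13 mRNAs were negative. mt-Tn, which carries asparagine, had 2.25 ± 0.79 (adjusted p = 0.231) with metformin at levels under 1 CPM. No call resulted for either at 7 d. Summed over the minus-strand tRNAs, the level was 14.9 ± 5.57 CPM in RL7_W and 14.8 ± 3.99 CPM in RL7_M. Plus-strand tRNAs summed to 167 ± 51.6 and 92.7 ± 13.9 CPM in the same groups. The minus-strand part of all tRNA counts was 5.32% ± 0.866 in AMB_W, 8.09% ± 0.96 in RL7_W and 14.1% ± 4.83 in RL7_M. It was 9.21% ± 1.45 in RL14_W and 6.18% ± 1.29 in RL14_ML. The labels do not say whether counting used strand, and reads from the opposite strand cannot be told from the tRNA's own.

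The parts that single mRNAs took were then compared. In every library mt-Nd1, mt-Nd2, mt-Co1, mt-Nd4, mt-Nd5 and mt-Cytb held between 97.84% and 99.39% of the mitochondrial protein-coding counts. Reads that also fit a nuclear copy may be missing from these counts. The small parts of mt-Co2, mt-Co3, mt-Atp6, mt-Nd3 and mt-Nd4l, and with them every percent of the total, are uncertain for that reason. mt-Co1 took 28.8% ± 0.868 of these counts in AMB_W and 31% ± 2.01 in RL7_W. It took 38.8% ± 3.98 in RL7_M, 35.8% ± 1.31 in RL7_L, 35.8% ± 1.96 in RL7_ML and 34.6% ± 2 in RL14_W. Its part was thus larger in the 4 groups with low totals, and in RL14_M it was 27.1% ± 1.52. mt-Nd2 ran the other way, with 13.4% ± 0.433 in AMB_W, 10.1% ± 0.634 in RL7_M, 11.1% ± 0.475 in RL14_W and 13.7% ± 0.568 in RL14_M. mt-Nd6 counts per 100 counts of mt-Nd5, the mRNA opposite it, averaged 2.72 ± 0.462 in AMB_W and 7.59 ± 4.33 in RL7_M. The RL7_M value includes RL7_M 4 at 14, the highest of the 52 libraries. These shares and ratios were described and not tested, and a larger part for one gene does not show that its level rose: mt-Co1 averaged 23147 ± 5289 CPM in RL7_M and 44005 ± 2234 CPM in AMB_W.

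**Figure D4:**
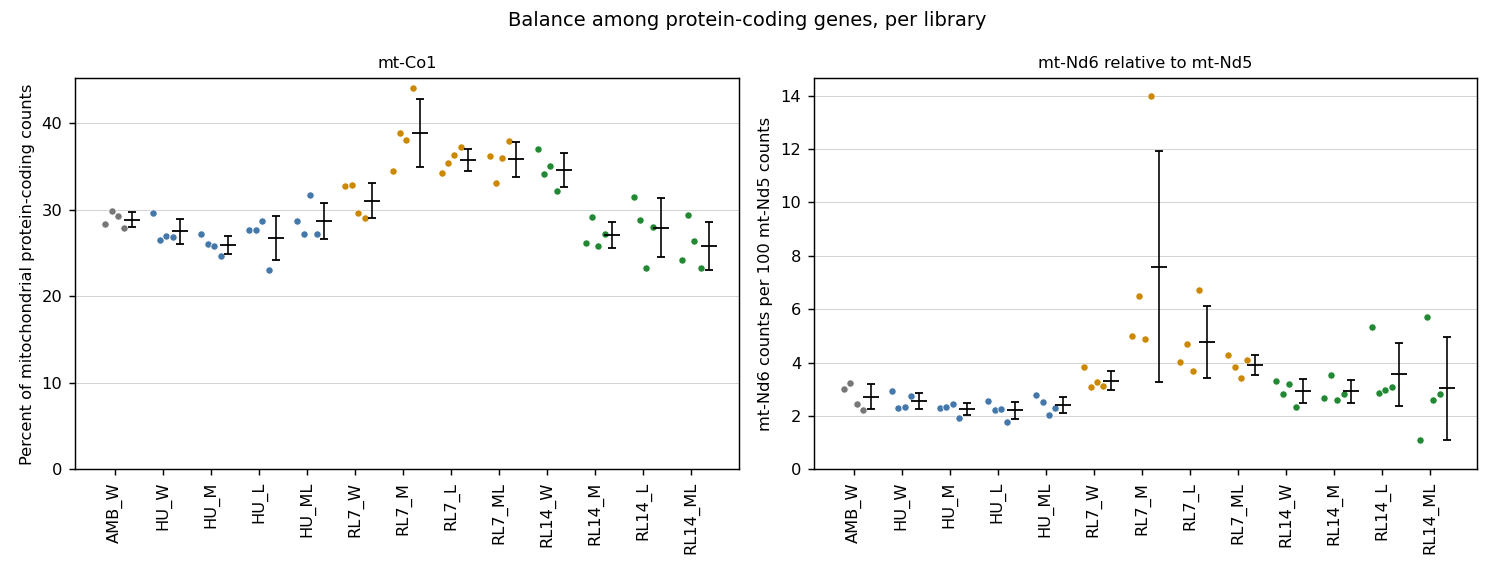
Left, counts of mt-Co1 as a percent of all mitochondrial protein-coding counts; right, mt-Nd6 counts per 100 mt-Nd5 counts; the horizontal axes give the 13 groups, each point is 1 library, and bars give the mean and SD (n = 4). mt-Co1 takes 28.8% on average in AMB_W and 38.8% in RL7_M, and the highest mt-Nd6 ratio, 14, is that of RL7_M 4. The percent rests on a total in which genes with a nuclear copy have uncertain counts.

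The next question was whether the effect of a drink differed between times, which was tested as an interaction term in the same model. For metformin, 22 of 30 genes had a higher effect at 14 d than at 7 d and 0 a lower one (5.89% of all genes higher, 8.59% lower): both rRNAs, all 13 mRNAs and 7 tRNAs. The size was 3.68 ± 0.46 for mt-Rnr1 and 2.43 ± 0.33 for mt-Cytb on the log2 scale. For leucine 15 were higher (0.582% of all genes higher), among them mt-Rnr1 at 3.94 ± 0.46 (adjusted p = 5.19e-07). For the combination 14 were higher (0.768% of all genes higher), among them mt-Rnr2 at 4.36 ± 0.54 (adjusted p = 2.51e-06). Against the effect during unloading, the effect at 14 d was higher for 2 genes with metformin (0.024% of all genes higher), mt-Rnr1 (2.48 ± 0.45, adjusted p = 0.0102) and mt-Co2 (3.08 ± 0.60, adjusted p = 0.0336), and for 15 with the combination (0.426% of all genes higher). With leucine 0 were called against unloading (0.006% of all genes), and 16 passed an unadjusted p of 0.05. There DESeq2 called 1 and limma voom 2 (13 and 28 over all genes). None of these terms was lower for a mitochondrial gene. Each term rests on 4 groups, and the terms of 1 drink share the libraries at 14 d.

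Leaving out 1 library in turn left between 18 and 23 calls for metformin at 14 d against 7 d. For leucine at 14 d against 7 d the count of 15 became 7 without RL14_L 4, 8 without RL7_W 4, RL7_L 5, RL14_W 3 or RL14_W 4, and 9 without RL14_L 5. It became 1 without the libraries with Alb above 16 CPM (3 over all genes, from 180). Of those libraries 2 are in RL7_L, 2 in RL14_L and 1 in RL14_W. For the combination at 14 d against 7 d it was 9 without RL14_ML 3. Against unloading, the combination's 15 became 3 without RL14_W 4, 4 without HU_W 3, 5 without RL14_ML 6, 6 without RL14_W 3, 7 without RL14_ML 3, 8 without HU_ML 1 and 23 without RL14_ML 1. The 2 calls for metformin against unloading became 0 without RL14_M 1 and 1 without HU_W 3, HU_M 1, HU_M 2, HU_M 4, RL14_W 3, RL14_W 4 or RL14_M 6.

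Nuclear genes of the same system were read from lists. Most subunits of complexes I, III, IV and V are coded in the nucleus, and 73 were tested. In RL14_W against HU_W, where 6 mitochondrial mRNAs fell, 10 of 73 nuclear subunits rose and 0 fell, with a median log2 fold change of 0.21 beside 0.03 over all genes, of which 5.5% rose. Among them were Ndufb8 of complex I at 0.69 ± 0.17, Cox8b of complex IV at 0.82 ± 0.21, and Uqcr11 and Cyc1 of complex III at 0.96 ± 0.26 and 1.08 ± 0.30. In RL14_M against RL14_W, where 10 mitochondrial mRNAs rose, 4 of 73 nuclear subunits rose and 1 fell (1.54% of all genes rose and 3.58% fell), with a median of 0.05 beside -0.01. The risers were Cox6c (1.14 ± 0.27), Ndufa5 (0.96 ± 0.26), Ndufa13 and Atp5h, and Ndufa7 fell (-0.66 ± 0.19). In RL14_L and RL14_ML against RL14_W, and in RL7_M against RL7_W, 0 of 73 were called. In RL7_W against HU_W 5 of 73 rose and 0 fell (1.97% of all genes rose and 2.9% fell), with a median of 0.30 beside 0.03. In the metformin effect at 14 d against 7 d, where all 13 mitochondrial mRNAs were higher, 9 of 73 were higher and 4 lower (5.89% and 8.59% of all genes), with a median of 0.12 beside -0.02; those with the smallest p were Cox6c (1.92 ± 0.37), Ndufa13 (1.14 ± 0.24) and Ndufa5 (1.69 ± 0.36).

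The machinery that reads and cuts mitochondrial RNA was called in few places. Of 28 tested genes for mitochondrial transcription and DNA maintenance, 1 rose in RL7_W against HU_W (Mrpl12, a ribosomal protein that also binds the polymerase, 0.57 ± 0.17) and 1 in RL14_W against HU_W (Dguok, which supplies nucleotides for mitochondrial DNA, 0.39 ± 0.13). At 14 d 0 of the 28 were called with metformin, leucine or both, with medians of -0.03, -0.01 and -0.08. The share of all genes that rose in these comparisons was 1.97% and 5.5%, so that 1 of 28 is near the background. Named for their role and outside the rule for named genes, the polymerase Polrmt and its partners Tfam and Tfb2m had log2 fold changes of -0.40 ± 0.19, 0.01 ± 0.13 and 0.08 ± 0.14 in RL14_M against RL14_W, with no call. Of 21 genes for RNA processing and stability, 1 rose in RL14_W against HU_W (Fastk, 0.84 ± 0.26) and 0 were called with any drink at 14 d. Of 25 genes that modify mitochondrial tRNAs and rRNAs, Tfb1m fell in HU_W against AMB_W (-0.55 ± 0.15), where 2.78% of all genes were called. In RL7_W against HU_W, Mrm1 and Tfb1m rose (1.14 ± 0.30 and 0.52 ± 0.15) and Nsun2 fell (-0.40 ± 0.12). Of all genes 1.97% rose there and 2.9% fell. In RL14_W against HU_W, Mrm1 and Rpusd3 rose (1.03 ± 0.30 and 0.87 ± 0.27) and Nsun2 fell (-0.46 ± 0.12). Of all genes 5.5% rose there and 4.22% fell. In RL14_M against RL14_W, Rpusd3 fell (-0.91 ± 0.27) and Mettl15, a methylase of the small-subunit rRNA, rose (0.76 ± 0.23). Of all genes 1.54% rose there and 3.58% fell. In the metformin effect at 14 d against 7 d, 4 of the 21 processing genes were higher and 0 lower, beside 5.89% and 8.59% of all genes. They were Grsf1, an RNA-binding protein of mitochondrial RNA granules (0.50 ± 0.13), Pnpt1, part of the RNA-degrading complex (0.98 ± 0.28), Lrpprc, which stabilises mitochondrial mRNAs (0.70 ± 0.20), and Ptcd3 of the mitochondrial ribosome (0.65 ± 0.19). Of the 28 transcription and maintenance genes, Mterf2 and the DNA-binding protein Ssbp1 were higher there (1.29 ± 0.36 and 0.99 ± 0.28). Of the 25 modifying genes, Nsun3 was higher (0.72 ± 0.20) and Rpusd3 lower (-1.43 ± 0.38). Both lists stand beside the same 5.89% and 8.59% of all genes.

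Another RNA that the kit removes moved in the same comparisons. n-R5-8s1, a gene of the small cytosolic rRNA of the large subunit, averaged 11.3 ± 3.37 CPM in AMB_W, 10.3 ± 2.76 CPM in HU_W, 4.99 ± 2.22 CPM in RL7_W and 0.718 ± 0.299 CPM in RL14_W. With the drinks during unloading it averaged 10.9 ± 0.982 CPM in HU_M, 19.8 ± 8.73 CPM in HU_L and 4.76 ± 3.07 CPM in HU_ML. The HU_L libraries (14.3 to 32.8 CPM) lay above all HU_W libraries (7.99 to 13.8 CPM), though n-R5-8s1 was not called there. At 14 d it averaged 18.4 ± 5 CPM in RL14_M, 19.1 ± 7.47 CPM in RL14_L, with 24.4 ± 8.9 CPM in RL14_ML, without overlap with RL14_W. Its log2 fold change was -3.79 ± 0.49 (adjusted p = 1.61e-06) in RL14_W against HU_W and 4.64 ± 0.49 (adjusted p = 8.79e-08) in RL14_M against RL14_W. At 7 d it was -2.44 ± 0.48 (adjusted p = 0.0135) with metformin and -2.70 ± 0.49 (adjusted p = 0.00254) with leucine, and -1.50 ± 0.44 (adjusted p = 0.368) with both. The 16 libraries of RL7_M, RL7_L, RL7_ML and RL14_W held 0.294 to 3.28 CPM of it, the other 36 held 2.07 to 33 CPM. With its level as a covariate in the model, 0 mitochondrial genes were called in RL14_W against HU_W and in each drink against RL14_W, and mt-Rnr1 in RL14_M against RL14_W went from 2.61 to 0.69. In RL14_W against HU_W mt-Rnr1 went from -1.34 to 0.22, and against AMB_W from -1.46 to 0.15. In the same fits the calls over all genes went from 853 to 0 in RL14_M against RL14_W and from 1620 to 24 in RL14_W against HU_W. The covariate itself differs between these groups, so that this fit cannot separate them, and the part of rRNA removal in the mitochondrial differences was not tested.

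**Figure D5:**
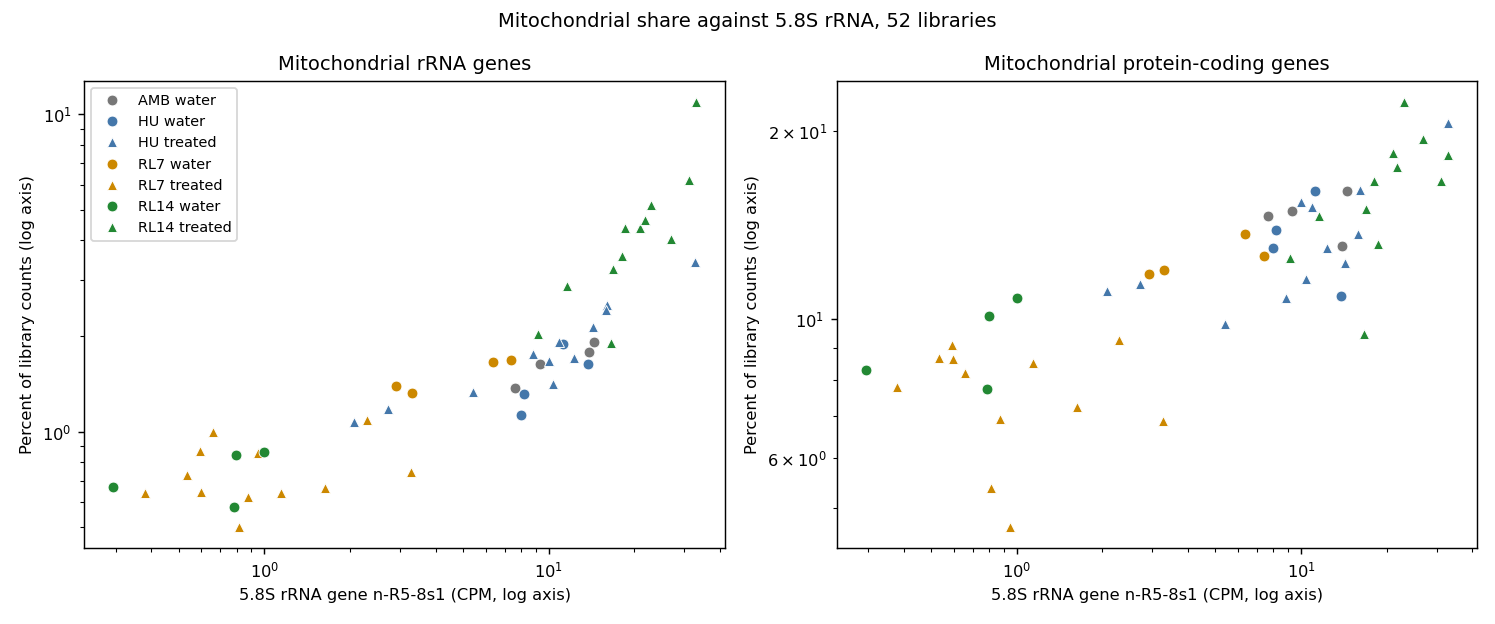
Percent of a library's counts on the mitochondrial rRNAs (left) and protein-coding genes (right), against the level of n-R5-8s1 in CPM; all axes are log scales, each point is 1 of 52 libraries, colours give the stage, circles water and triangles treated. The 16 libraries of RL7_M, RL7_L, RL7_ML and RL14_W lie low on both axes (0.294 to 3.28 CPM of n-R5-8s1 and 0.501% to 1.09% of counts on mitochondrial rRNA).

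Blood and liver transcripts also moved with some of these groups. The 5 red blood cell markers (Hba-a1, Hba-a2, Hbb-bs, Hbb-bt and Alas2) summed to 26 to 57.4 CPM in HU_W, 2.59 to 4.34 CPM in RL14_W and 9.36 to 63.4 CPM in RL14_M. All 5 were called lower in RL14_W against HU_W and higher in RL14_M against RL14_W. In AMB_W, where mitochondrial shares were high, they summed to 2.7 to 5.98 CPM. Mature red cells lack mitochondria, and the part of blood in the result was not tested. Liver markers reached 1074 CPM in a library of RL14_L and 98.8 CPM in one of RL14_W. Without the libraries with Alb above 16 CPM, the log2 fold changes in RL14_M against RL14_W were 2.72 for mt-Rnr1 and 1.33 for mt-Nd1 (adjusted p = 0.000651 and 0.00303). Against RL14_W that fit called 15 mitochondrial genes in RL14_M (19 before), 1 in RL14_L (9 before) and 10 in RL14_ML (11 before). Over all genes the calls went from 853 to 547, from 49 to 17 and from 119 to 107. The part of liver transcripts in the result was not tested. Of the 9 muscle markers, 2 rose and 1 fell in RL14_W against HU_W, with a median log2 fold change of -0.27 beside 0.03 over all genes. In RL14_M against RL14_W 1 rose and 1 fell, with a median of 1.16 beside -0.01. The actin gene Acta1 rose in RL14_W against HU_W (1.08 ± 0.25). Myh1, the myosin of a fast fibre type, fell in RL14_W against HU_W (-1.51 ± 0.43) and rose in RL14_M against RL14_W (1.39 ± 0.42), and Ckm did the reverse (0.67 ± 0.18 and -0.56 ± 0.18). The part of fibre type in the mitochondrial differences was not tested.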

How the data were processed

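Total RNA of 52 gastrocnemius samples was sequenced as Illumina stranded libraries after removal of ribosomal RNA, per the labels. The table deposited by the authors gives unnormalized whole-number counts for Ensembl genes. The submitters' processing notes name GRCm38, STAR 2.7.3a, featureCounts 1.6.3 and DESeq2 1.30.0. The labels name no strand setting, no treatment of multi-mapped reads and no annotation release. Symbols and positions came from GENCODE vM21, which matched 55141 of 55487 identifiers. The members, lists, tests and alternatives were chosen with earlier results of these data known.

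Genes passing filterByExpr (minimum count 10) numbered 16668, and 30 of the 37 mitochondrial genes were among them. edgeR 4.0.16 in R 4.3.3 scaled libraries by TMM and fitted 1 robust quasi-likelihood model of 13 groups of 4 (39 residual degrees of freedom, common dispersion 0.045). Within each comparison, p-values of all genes were adjusted together (Benjamini-Hochberg), and genes under 0.05 were called. Values after ± are SE for log2 fold changes and SD (n = 4) for levels and shares. Shares, compositions and ratios were not tested. The steps were tested on simulated data. No library was counted as a duplicate: between replicates, chi-square divided by its degrees of freedom was 7.47 or more.

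All members may be named. Values in every library are given for both rRNAs, 1 gene per respiratory complex, mt-Nd6 and the tRNA with the highest mean CPM. From each list, up to 4 called genes with the smallest p may be named per comparison. Alternatives were RLE factors, scaling on nuclear genes, no filter, n-R5-8s1 as a covariate, leaving out libraries, a replicate block, fits of only the groups compared, limma 3.58.1 voom, DESeq2 1.42.0 and, for shares, a denominator without ribosomal RNA. Summing nuclear copies was added after seeing the data.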

Additional observations from a re-analysis of the deposited data

Results flagged for a closer look

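Within groups of 4, a library was marked when its gap to the nearest other library as a part of the group's range passed Dixon's 95% critical value, which chance gives in about 1 in 20 groups. Of 143 groups tested (3 class shares and 8 genes in 13 groups), 9 held such a library. RL7_L 5 was low in its protein-coding share (5.37%), mt-Nd1 (6736 CPM) and mt-Co1 (17034 CPM). RL14_L 2 was low in both rRNAs, with 13927 CPM of mt-Rnr1 and 7453 CPM of mt-Rnr2. RL14_ML 3 was high in its tRNA share (0.0402%), RL7_M 2 was high in mt-Rnr2 (3826 CPM), RL14_W 5 was high in mt-Nd1 (16125 CPM) and RL7_ML 6 was low in mt-Atp6 (61.9 CPM).

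The effect of a drink differed between times by the interaction test of edgeR (adjusted p under 0.05 over 16668 genes). For metformin 22 mitochondrial genes had a higher effect at 14 d than at 7 d (5.89% of all genes) and 2 a higher effect than during unloading (0.024%). For leucine 15 had a higher effect at 14 d than at 7 d (0.582%). For the combination 14 had a higher effect at 14 d than at 7 d (0.768%) and 15 a higher effect than during unloading (0.426%). The libraries of RL7_M, RL7_L, RL7_ML and RL14_W, which enter the terms against 7 d, hold a run of library numbers, 25 to 40, and low levels of n-R5-8s1 (0.294 to 3.28 CPM). With n-R5-8s1 as a covariate 0 mitochondrial genes were called in these terms. Over all genes the calls fell to 0 as well, from 2413 for metformin against 7 d and 4 against unloading. They fell to 0 from 180 for leucine against 7 d, and for the combination from 321 against 7 d and 160 against unloading.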

How the results depend on the processing

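With edgeR's other scaling (RLE), scaling on nuclear genes only, or nuclear copies summed in, all 24 counts of called mitochondrial genes stayed within 1.5 times their value. All 128 calls of a single gene in a comparison kept direction and call. Summing the copies was chosen after seeing the data, and it cannot bring back reads dropped for fitting both places. Class shares moved by less than 1 SD in all 13 groups when ribosomal RNA was left out of the denominator. The settings below moved some counts, and they moved the calls over all genes too. In RL14_L against RL14_W those numbered 49 before, 19 without the filter, 2 with the covariate and 17 without the libraries with Alb above 16 CPM. They numbered 1112 without RL14_ML 1 and 6, 49 with the block and 234 with only the compared groups. With limma voom they numbered 1362 there and 2991 in RL14_W against AMB_W (29 before), and with DESeq2 188 and 292. Without a filter on low counts, the calls numbered 0 in RL14_W against AMB_W (1 before), RL7_W against HU_W (1 before) and RL7_M against RL7_W (3 before), 1 in RL14_ML against AMB_W (2 before), 2 in RL14_L against RL14_W (9 before), 3 in the effect of the combination at 14 d minus unloading (15 before), 6 in RL14_W against HU_W (14 before) and RL14_ML against RL14_W (11 before), 8 in the effect of leucine at 14 d minus 7 d (15 before); of 128 calls of single genes 69 were kept. With n-R5-8s1 as a covariate, the calls numbered 0 in RL14_W against AMB_W (1 before), RL7_W against HU_W (1 before), RL14_W against HU_W (14 before), RL7_M against RL7_W (3 before), RL14_M against RL14_W (19 before), RL14_L against RL14_W (9 before), RL14_ML against RL14_W (11 before), the effect of metformin at 14 d minus unloading (2 before), the effect of metformin at 14 d minus 7 d (22 before), the effect of leucine at 14 d minus 7 d (15 before), the effect of the combination at 14 d minus unloading (15 before) and the effect of the combination at 14 d minus 7 d (14 before), 1 in RL14_ML against AMB_W (2 before); of 128 calls of single genes 1 was kept. Without the libraries with Alb above 16 CPM, the calls numbered 1 in RL14_L against RL14_W (9 before), RL14_ML against AMB_W (2 before), the effect of metformin at 14 d minus unloading (2 before) and the effect of leucine at 14 d minus 7 d (15 before), 4 in RL14_W against HU_W (14 before), 5 in RL7_M against RL7_W (3 before), 9 in the effect of the combination at 14 d minus unloading (15 before); of 128 calls of single genes 75 were kept. Without RL14_ML 1 and RL14_ML 6, the calls numbered 1 in RL14_W against RL7_W (0 before) and the effect of leucine at 14 d minus unloading (0 before), 2 in RL7_ML against RL7_W (0 before), RL14_M against AMB_W (0 before) and RL14_L against AMB_W (0 before), 4 in RL7_L against RL7_W (0 before), 9 in RL7_M against RL7_W (3 before), 14 in the effect of metformin at 14 d minus unloading (2 before), 15 in RL14_L against RL14_W (9 before), 16 in RL14_W against AMB_W (1 before); of 128 calls of single genes 126 were kept. With the replicate number as a block, the calls numbered 0 in RL14_W against AMB_W (1 before), RL7_W against HU_W (1 before) and RL14_ML against AMB_W (2 before), 4 in RL14_ML against RL14_W (11 before); of 128 calls of single genes 111 were kept. With only the compared groups in the fit, the calls numbered 0 in RL7_W against HU_W (1 before), RL7_M against RL7_W (3 before) and RL14_ML against AMB_W (2 before), 1 in RL14_ML against RL14_W (11 before) and the effect of leucine at 14 d minus unloading (0 before), 2 in RL7_W against AMB_W (0 before), RL14_M against AMB_W (0 before) and the effect of the combination at 14 d minus unloading (15 before), 3 in RL7_L against RL7_W (0 before), 7 in RL14_W against RL7_W (0 before) and the effect of the combination at 14 d minus 7 d (14 before), 9 in RL7_ML against RL7_W (0 before), 14 in RL14_L against RL14_W (9 before), 15 in the effect of metformin at 14 d minus unloading (2 before), 18 in RL14_W against AMB_W (1 before); of 125 calls of single genes 86 were kept. With limma voom, the calls numbered 2 in RL7_W against AMB_W (0 before) and the effect of leucine at 14 d minus unloading (0 before), 4 in RL7_W against HU_W (1 before), 6 in RL7_ML against RL7_W (0 before) and RL14_M against AMB_W (0 before), 8 in RL14_W against RL7_W (0 before), RL7_M against RL7_W (3 before) and RL7_L against RL7_W (0 before), 17 in RL14_W against AMB_W (1 before), 20 in RL14_L against RL14_W (9 before), 22 in the effect of metformin at 14 d minus unloading (2 before); of 128 calls of single genes 127 were kept. With DESeq2, the calls numbered 1 in the effect of leucine at 14 d minus unloading (0 before), 2 in RL7_L against RL7_W (0 before), 6 in RL7_M against RL7_W (3 before) and the effect of metformin at 14 d minus unloading (2 before), 10 in RL14_W against AMB_W (1 before); of 128 calls of single genes 123 were kept. With n-R5-8s1 as a covariate, which differs between the same groups, 11 calls also changed sign without a call: mt-Rnr1 at 0.15 in RL14_W against AMB_W and 0.22 in RL14_W against HU_W, mt-Tr at 0.77 in RL14_W against HU_W, -1.03 in RL14_M against RL14_W, -1.92 in the effect of metformin at 14 d minus 7 d, -1.47 in the effect of leucine at 14 d minus 7 d, -1.37 in the effect of the combination at 14 d minus unloading and -1.59 in the effect of the combination at 14 d minus 7 d, mt-Tl2 at -0.25 in RL14_M against RL14_W and -0.79 in the effect of metformin at 14 d minus 7 d, mt-Atp8 at -1.11 in the effect of metformin at 14 d minus 7 d. Leaving out each library in turn gave ranges of calls of 0 to 2 for RL14_W against AMB_W, 0 to 1 for RL7_W against HU_W, 3 to 12 for RL14_W against HU_W, 0 to 4 for RL7_M against RL7_W, 9 to 20 for RL14_M against RL14_W, 2 to 13 for RL14_L against RL14_W, 3 to 18 for RL14_ML against RL14_W, 0 to 2 for RL14_L against AMB_W, 1 to 2 for RL14_ML against AMB_W, 0 to 3 for the effect of metformin at 14 d minus unloading, 7 to 18 for the effect of leucine at 14 d minus 7 d, 3 to 23 for the effect of the combination at 14 d minus unloading, 9 to 20 for the effect of the combination at 14 d minus 7 d. The replicate numbers in the titles do not pair the libraries: over 219 pairs of libraries with the same number in different groups the median correlation of deviations from the group means was 0.0133, with 47 pairs over 0.1, and over 1029 pairs with different numbers it was -0.00225, so the fit with the block is given for its counts only. Where a setting moved a count, the cause was not tested. The 7 tRNAs under the count filter, mt-Tk with 0 counts in 49 of 52 libraries among them, were not tested.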
